A study of Gallus gallus with 24 samples.

Results

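Meiosis begins in the germ cells of the female gonad, and 6 genes of its first steps were followed over embryonic development on both sides of the female chicken embryo: STRA8, SMC1B, SYCP3, SYCP2, SPO11 and MEIOB. They were taken by name as rows of the deposited table of read counts, and all 6 were found among its 24154 genes. Of the 6, 5 passed the filter on low counts, which left 16694 genes to test, and MEIOB did not pass. Poly(A) RNA was sequenced from gonads of female Leghorn chickens at embryonic days 5, 6.5, 8 and 9.5 (E5, E6.5, E8 and E9.5), with left and right gonads in separate libraries. Each stage had 3 left and 3 right libraries, 24 in all, and the series asks how the gonads come to differ between the sides. The labels name no allele, transgene or treatment in any group. Whether a library held 1 embryo or a pool, and whether replicates came from separate embryos, is not stated, so the p-values measure the spread between these libraries, which may be technical.

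Germ cells leave the mitotic cycle for meiosis when STRA8, a nuclear protein induced by retinoic acid, is switched on. Their chromosomes are then built into loops along an axis made of meiosis-specific cohesin, with SMC1B as a subunit, and of the axial proteins SYCP3 and SYCP2, and homologous axes are joined by the synaptonemal complex. SPO11 cuts the DNA to start recombination, and MEIOB binds the single-stranded DNA that forms at those breaks, as known from mouse. In female chickens the left gonad becomes the ovary while the right one regresses, and the germ cells of the left cortex enter meiosis later in incubation than the stages sampled here.

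Libraries held 15078282 to 19970859 counts. Values are given as CPM, read counts scaled to the library total with trimmed mean of M-values (TMM) factors, and log2 fold changes are left over right or later over earlier, with their standard error (SE). Each was tested with edgeR's quasi-likelihood test, called at a Benjamini-Hochberg adjusted p under 0.05 over all genes tested. In bulk tissue, fewer cells of a type and less RNA per cell cannot be told apart. Germ cell transcripts differed with side: a germ cell score, the mean log2 CPM of 10 germ cell genes that hold none of the 6 members, was 4.79 to 5.18 in left and 3.20 to 4.10 in right libraries at E5, and 5.78 to 6.11 in left and 5.23 to 5.35 in right libraries at E9.5, with no overlap of the sides at any stage. DDX4, a germ cell RNA helicase of that list, was higher on the left at all 4 stages, by 1.38, 1.38, 1.26 and 0.82 on the log2 scale (adjusted p from 0.0011 to 0.022). DAZL, a germ cell RNA-binding protein, was higher by 1.45, 1.43 and 0.87 at E5, E6.5 and E8, and its difference at E9.5 did not pass (log2 0.33, adjusted p = 0.42). Markers of gonadal somatic cells, such as NR5A1 and FOXL2, were present in every library, at a mean log2 CPM of 3.94 to 7.08. Their score was lower in left libraries at E8 (6.69 to 6.71 in left and 6.88 to 6.98 in right ones). At E9.5 it was higher in left libraries by a small margin (6.904 to 7.08 in left and 6.61 to 6.898 in right ones). Markers of neighbouring tissue moved with side as well. At E8, 10 of 11 tested adrenal and chromaffin markers were higher in left gonads, where 7.54% of all genes were higher. The summed levels of the 11 were 744 to 1896 CPM in left and 192 to 229 CPM in right libraries. Their mean log2 CPM was 3.30 to 4.98 in left and 1.42 to 1.62 in right ones. At E9.5, 4 of 13 tested mesonephros markers were lower in left gonads, where 7.87% of all genes were lower. The summed levels of the 13 were 117 to 300.1 CPM in left and 611 to 2608 CPM in right libraries. The mesonephros score was also lower in left libraries at E8 (3.37 to 3.82 in left and 4.31 to 5.93 in right ones), and the adrenal score was higher in left libraries at E9.5 (2.21 to 4.44 in left and 1.67 to 1.99 in right ones) and lower in them at E5 (1.75 to 2.17 in left and 2.37 to 2.82 in right ones), without overlap in each case. The macrophage and leukocyte score was lower in left libraries without overlap at all 4 stages, with 3.29 to 3.41 in left and 3.76 to 3.97 in right ones at E5 and 3.04 to 3.15 in left and 3.46 to 3.80 in right ones at E9.5. The endothelium score was lower in left libraries without overlap at E6.5, E8 and E9.5, with 5.75 to 5.90 in left and 6.18 to 6.29 in right ones at E8. The red blood cell and liver scores were lower in left libraries without overlap at E8 and E9.5. A score of germ cell pluripotency genes was higher in left libraries at E5 and E6.5 without overlap. At E9.5 it was lower in them (2.56 to 2.64 in left and 2.98 to 3.41 in right ones). The part of leukocyte, endothelial, red blood and gonadal somatic cells in the results was not tested. Fits with the adrenal and mesonephros scores as covariates are given below with the germ cell score. The liver gene ALB reached 169.7 CPM in the third E6.5 left library and 1008 CPM in the third E8 right library; without both, all 17 calls on members that could be refitted passed again.

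STRA8 was higher in left than in right gonads at E5, E6.5 and E8, SMC1B at E6.5, E8 and E9.5, and SYCP3 at E8 and E9.5, whereas SPO11 was lower in left gonads at E8 and E9.5 and SYCP2 was not called between sides. At E5, 1 of the 5 tested members was called, higher on the left, where 2.94% of all genes were called (1.92% higher and 1.02% lower). At E6.5, 2 of 5 were called, both higher on the left, against 3.24% of all genes (2.67% higher and 0.575% lower). At E8, 3 were higher and 1 lower, against 14.3% of all genes (7.54% higher and 6.71% lower). At E9.5, 2 were higher and 1 lower, against 13% of all genes (5.13% higher and 7.87% lower).

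**Figure D1:**
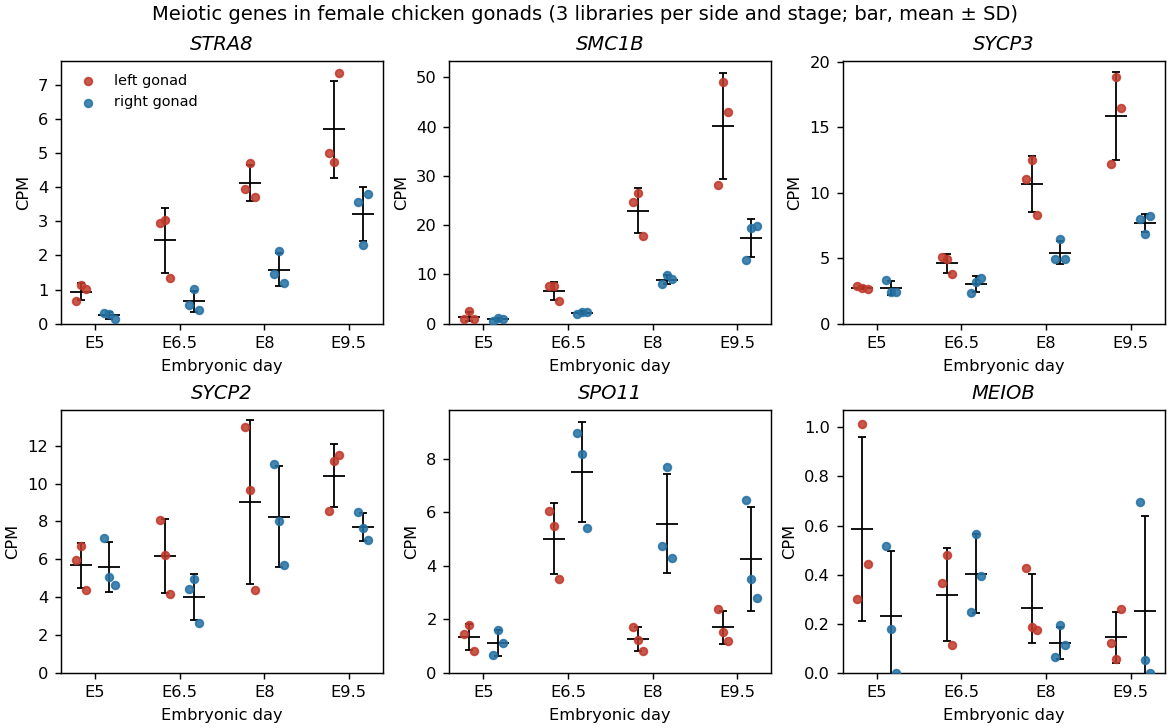
Normalised level in CPM (y axis) of the 6 genes by embryonic day (x axis), with 1 point per library, left gonads in red and right gonads in blue, and the mean ± SD of 3 libraries as a bar. SMC1B reaches 40.1 ± 10.7 CPM in left and 17.4 ± 3.85 CPM in right gonads at E9.5, and SPO11 is the gene with right libraries above left ones at E8 and E9.5.

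At E5, STRA8, the switch for meiotic entry, had 0.663, 1.14 and 1.02 CPM in the left gonads, against 0.323, 0.296 and 0.131 CPM in the right. At E6.5 it had 2.94, 3.05 and 1.34 CPM in the left gonads, against 0.553, 1.01 and 0.396 CPM in the right. All left libraries lay above all right ones at both stages, and the E5 values rest on 11, 18 and 16 counts in the left libraries and 5, 5 and 2 in the right. At E8 it had 3.96, 4.72 and 3.70 CPM in the left gonads, against 1.45, 2.12 and 1.18 CPM in the right. At E9.5 it had 5.01, 4.73 and 7.33 CPM in the left gonads, against 3.55, 2.30 and 3.79 CPM in the right. The left libraries again all lay above the right ones. The left gonads were higher at E5 (log2 1.87 ± 0.46 SE, adjusted p = 0.030), at E6.5 (log2 1.89 ± 0.39 SE, adjusted p = 0.0085) and at E8 (log2 1.38 ± 0.35 SE, adjusted p = 0.013). At E9.5 the difference did not pass (log2 0.83 ± 0.34 SE, adjusted p = 0.11); with same-numbered libraries as a block it did (adjusted p = 0.033, with a range of 0.033 to 0.95 over all alternatives). The E5 call was lost without the left library 2 or 3 or any single right library (adjusted p 0.063 to 0.16), and the E6.5 call without left library 2 or right library 1 or 3 (adjusted p 0.055 to 0.069).

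Over time STRA8 rose on both sides, by 2.59 ± 0.37 in left gonads (adjusted p = 1.4e-05) and by 3.63 ± 0.44 in right gonads (adjusted p = 1.7e-06) on the log2 scale at E9.5 relative to E5. The mean level in left gonads was 0.940 ± 0.247, 2.44 ± 0.956, 4.13 ± 0.527 and 5.69 ± 1.43 CPM (SD, n = 3) from E5 to E9.5. In right gonads it was 0.250 ± 0.104, 0.652 ± 0.318, 1.58 ± 0.481 and 3.21 ± 0.802 CPM. The first step that passed the test came between E5 and E6.5 in left gonads (log2 1.37 ± 0.37 SE, adjusted p = 0.020) and between E6.5 and E8 in right gonads (log2 1.26 ± 0.39 SE, adjusted p = 0.028). The step from E5 to E6.5 in right gonads was of like size and did not pass (log2 1.35 ± 0.48 SE, adjusted p = 0.064), so the times of onset on the 2 sides are not shown to differ. The left step was lost without the E5 left library 1 or 3 or the E6.5 left library 1 or 2 (adjusted p 0.053 to 0.12), and the right step without the E6.5 right library 1 or 3 or the E8 right library 1 or 2 (adjusted p 0.054 to 0.14). Set against the germ cell score of the same library, STRA8 overlapped between sides at all 4 stages: its log2 CPM minus the score was -4.91 ± 0.21 in left and -5.11 ± 0.30 in right gonads at E5, and -3.43 ± 0.41 in left and -3.60 ± 0.31 in right gonads at E9.5 (SD, n = 3). On that scale E9.5 was higher than E5 by 1.48 in left and 1.50 in right gonads. These relative values are sensitive to the prior count at the few counts of E5: with 0.5 in place of 2, left minus right at E5 was 0.50, against 0.20. With the germ cell score as a covariate the right rise no longer passed (log2 1.57, adjusted p = 0.15).

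The genes most like STRA8 over the 24 libraries were ADAD1, RNF17 and STK31, with Pearson r of 0.97 for each of the 3 on the log2 CPM scale. All 3 are germ cell genes, RNF17 stands in the germ cell score itself, and the libraries share side, stage and germ cell content. In the GRCg7b RefSeq annotation STRA8 overlaps WDR91, whose side differences were between -0.01 and 0.16 on the log2 scale and passed at no stage. WDR91 had a mean of 83.8 CPM over the 24 libraries, against 2.36 CPM for STRA8. The strand setting of the counting is not given in the sources used here, so reads in a stretch shared by overlapping genes cannot be told apart.

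**Figure D2:**
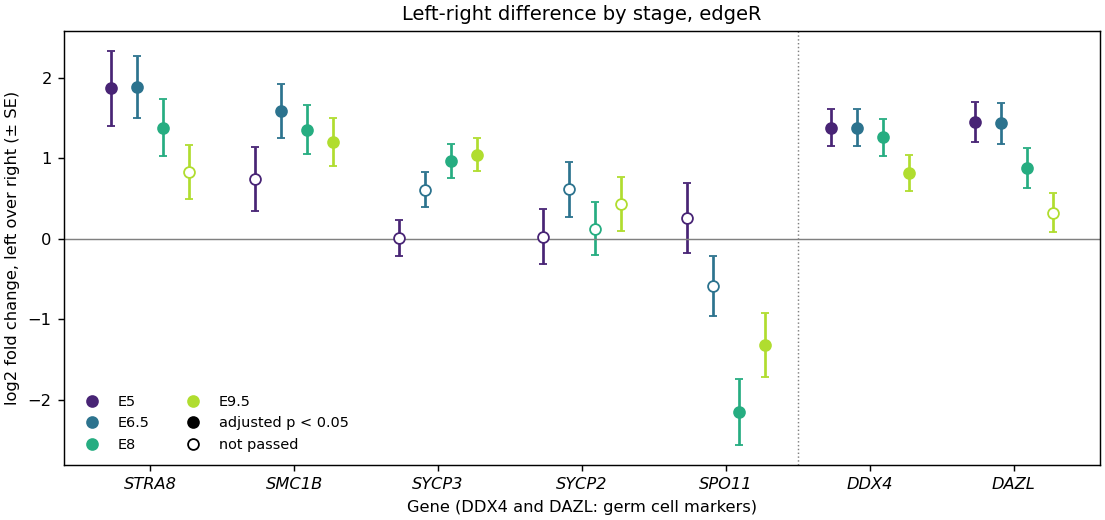
Log2 fold change of left over right gonads (y axis, ± SE, edgeR) of the 5 tested genes and the germ cell markers DDX4 and DAZL (x axis), with 1 point per stage, filled where the adjusted p is under 0.05 and open otherwise. STRA8 lies at 1.87 at E5 and 0.83 at E9.5, SYCP3 lies at 0.01 at E5 and 1.04 at E9.5, and SPO11 reaches -2.15 at E8.

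SMC1B, the meiosis-specific SMC subunit of cohesin, had the largest rise of the tested members on each side. At E5 it had 0.965, 2.47 and 0.890 CPM in the left gonads, against 0.453, 1.18 and 0.919 CPM in the right, where the sides overlapped. At E6.5 it had 7.64, 7.71 and 4.63 CPM in the left gonads, against 1.90, 2.27 and 2.44 CPM in the right. From this stage on, every left library lay above every right one. At E8 it had 24.7, 26.4 and 17.7 CPM in the left gonads, against 8.01, 9.89 and 8.97 CPM in the right. At E9.5 it had 28.2, 49.1 and 42.9 CPM in the left gonads, against 12.99, 19.4 and 19.9 CPM in the right. The left gonads were higher at E6.5 (log2 1.59 ± 0.34 SE, adjusted p = 0.011), E8 (log2 1.36 ± 0.31 SE, adjusted p = 0.0063) and E9.5 (log2 1.20 ± 0.30 SE, adjusted p = 0.014), and the E5 difference did not pass (log2 0.74 ± 0.40 SE, adjusted p = 0.49). The E6.5 call was lost without left library 2 or right library 1 (adjusted p 0.058 for each), and the E9.5 call without left library 2 (adjusted p = 0.054).

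In left gonads SMC1B rose between E5 and E6.5 (log2 2.20 ± 0.35 SE, adjusted p = 2.1e-04) and between E6.5 and E8 (log2 1.78 ± 0.31 SE, adjusted p = 5.5e-04), and in right gonads it did so over the same steps (log2 1.35 ± 0.39 SE, adjusted p = 0.023, and log2 2.02 ± 0.34 SE, adjusted p = 3.4e-04). The E9.5 mean of 40.1 ± 10.7 CPM in left gonads stood against 1.44 ± 0.890 CPM at E5 (log2 4.79 ± 0.37 SE, adjusted p = 3.4e-09). In right gonads 17.4 ± 3.85 CPM at E9.5 stood against 0.852 ± 0.370 CPM at E5 (log2 4.33 ± 0.38 SE, adjusted p = 2.2e-08). The first right step was lost without the E5 right library 1 or 3 or the E6.5 right library 2 or 3 (adjusted p 0.054 to 0.12). Relative to the germ cell score, SMC1B was higher at E9.5 than at E5 by 3.82 in left and 2.55 in right gonads, more than STRA8 on the same scale. On that scale the sides all but met at E8 (-1.42 ± 0.23 in left and -1.67 ± 0.10 in right gonads). The lowest left library there lay at -1.597 and the highest right one at -1.598. At E9.5 the sides overlapped. The most similar genes were ELL2, ELMOD1 and MYOZ2 (r = 0.98, 0.97 and 0.96), of which MYOZ2 was also among the 3 most like SYCP3.

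At E5, SYCP3, the main protein of the chromosome axis, had 2.89, 2.72 and 2.67 CPM in the left gonads, against 3.36, 2.43 and 2.43 CPM in the right, and the sides overlapped. At E6.5 it had 5.08, 4.96 and 3.79 CPM in the left gonads, against 2.33, 3.21 and 3.49 CPM in the right, and the sides no longer overlapped. At E8 it had 11.1, 12.5 and 8.33 CPM in the left gonads, against 4.92, 6.48 and 4.91 CPM in the right. At E9.5 it had 12.2, 18.8 and 16.5 CPM in the left gonads, against 7.99, 6.89 and 8.23 CPM in the right. The difference passed the test at E8 (log2 0.97 ± 0.21 SE, adjusted p = 0.0045) and E9.5 (log2 1.04 ± 0.21 SE, adjusted p = 0.0031), and not at E6.5 (log2 0.61 ± 0.22 SE, adjusted p = 0.16) or E5 (log2 0.01 ± 0.22 SE, adjusted p = 0.998). Both calls passed on leaving out any single library of their stage. The side difference at E9.5 minus that at E5 was 1.03 ± 0.30 on the log2 scale and did not pass (adjusted p = 0.088); it passed without the E9.5 left library 1 (log2 1.21, adjusted p = 0.045) and in DESeq2 (adjusted p = 0.041), in a range of 0.041 to 0.18 over all alternatives.

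In left gonads SYCP3 rose at E6.5 relative to E5 (log2 0.74 ± 0.22 SE, adjusted p = 0.034) and at E8 relative to E6.5 (log2 1.21 ± 0.21 SE, adjusted p = 5.5e-04), and in right gonads at E8 relative to E6.5 (log2 0.85 ± 0.22 SE, adjusted p = 0.0089). At E9.5 relative to E5 it was higher by 2.52 in left and 1.49 in right gonads on the log2 scale (adjusted p = 2.3e-08 and 2.0e-05). The first left step was lost without any single E5 left library or the E6.5 left library 1 or 2 (adjusted p 0.082 to 0.13), and the right step without the E6.5 right library 1 or the E8 right library 2 (adjusted p 0.058 to 0.066). Set against the germ cell score, SYCP3 was lower in left libraries at E5 (-3.44 ± 0.24 in left and -2.13 ± 0.53 in right gonads) and higher in left libraries at E9.5 (-1.96 ± 0.17 in left and -2.34 ± 0.07 in right gonads), with no overlap of the sides at either stage. Between those stages this relative level was higher at E9.5 by 1.48 in left gonads, and in right gonads the difference was -0.21. At E5 SYCP3 itself had means of 2.76 CPM in left and 2.74 CPM in right gonads, and the mean score was 4.96 in left and 3.63 in right gonads. The relative difference at E5 thus carries the side difference of the score, and the turn by E9.5 is not read as a change of SYCP3 per germ cell. The genes most like SYCP3 were IFIH1, MYOZ2 and SMC1B (r = 0.94 for each), of which IFIH1 and MYOZ2 are in none of the germ cell or meiosis lists. In GRCg7b SYCP3 overlaps CHPT1, a phospholipid synthesis gene whose side differences were 0.04, 0.18, 0.12 and 0.23 on the log2 scale over the 4 stages, none of which passed. CHPT1 had a mean of 83.6 CPM over all libraries, against 6.60 CPM for SYCP3.

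SYCP2, the axial partner of SYCP3, passed the test between sides at no stage. At E5 it had 5.97, 6.71 and 4.38 CPM in the left gonads, against 7.11, 5.03 and 4.66 CPM in the right, with overlap. At E6.5 it had 8.07, 6.21 and 4.18 CPM in the left gonads, against 4.42, 4.98 and 2.64 CPM in the right, also with overlap. At E8 it had 12.97, 9.68 and 4.40 CPM in the left gonads, against 11.04, 8.03 and 5.70 CPM in the right, again with overlap and with a wide spread among the libraries of each side. At E9.5 it had 8.52, 11.2 and 11.5 CPM in the left gonads, against 8.49, 7.62 and 6.99 CPM in the right. There the left libraries lay above the right ones by a small margin, and the difference did not pass (log2 0.44 ± 0.33 SE, adjusted p = 0.43). The one step that passed was in right gonads at E8 relative to E6.5 (log2 1.04 ± 0.34 SE, adjusted p = 0.038), where the E6.5 right libraries had 4.42, 4.98 and 2.64 CPM. That call was lost without any single E6.5 right library or the E8 right library 1 or 2 (adjusted p 0.054 to 0.20) and without the filter on low counts (adjusted p = 0.057). In left gonads SYCP2 at E9.5 against E5 lay next to the threshold and was not called by edgeR (log2 0.87 ± 0.34 SE, adjusted p = 0.052). It was called by DESeq2 (log2 0.87, adjusted p = 0.035) and with the replicate block (log2 0.94, adjusted p = 0.0079), in a range of 0.0079 to 0.82 over all alternatives. Between stages that block gives each replicate number an effect shared by all stages and both sides, which the labels do not state. Relative to the germ cell score SYCP2 was lower at E9.5 than at E5 in right gonads by a difference of -1.21, without overlap. The log2 change of SYCP2 itself there was 0.46 ± 0.34 SE and did not pass (adjusted p = 0.31). The score of right libraries was 3.20 to 4.10 at E5 and 5.23 to 5.35 at E9.5. The relative difference in right gonads thus carries the rise of the score and is not read as a change of SYCP2 per germ cell. In left gonads the relative difference was -0.11, which turned to 0.38 with DDX4 and DAZL in place of the score. The gene most like SYCP2 was ARMC3, at r = 0.86, below the best match of the other 4 tested members. ZDHHC21 and FBXO15 came next (r = 0.77 for each).

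SPO11, the topoisomerase-like enzyme that makes the double-strand breaks of meiosis, followed another course. At E5 it had 1.45, 1.77 and 0.826 CPM in the left gonads, against 0.647, 1.60 and 1.12 CPM in the right. At E6.5 it had 6.05, 5.50 and 3.51 CPM in the left gonads, against 8.96, 8.19 and 5.41 CPM in the right. It was higher at E6.5 than at E5 in every library of either side, and the sides overlapped at both stages. At E8 it had 1.70, 1.24 and 0.810 CPM in the left gonads, against 4.73, 7.70 and 4.29 CPM in the right. At E9.5 it had 2.38, 1.54 and 1.19 CPM in the left gonads, against 6.46, 3.50 and 2.81 CPM in the right. Every left library lay below every right one at these later stages. The left gonads were lower at E8 (log2 -2.15 ± 0.41 SE, adjusted p = 0.0018) and at E9.5 (log2 -1.32 ± 0.40 SE, adjusted p = 0.034), while E5 (log2 0.26 ± 0.43 SE, adjusted p = 0.94) and E6.5 (log2 -0.58 ± 0.38 SE, adjusted p = 0.50) did not pass. The E8 call passed on leaving out any single library of the stage. With the germ cell score as a covariate the log2 difference was -3.07 (adjusted p = 0.0057). That score did not overlap between the sides and SPO11 did not track it, as given below, so this fit adds no support. The E9.5 call was lost without left library 2 or 3 or right library 1 or 2 (adjusted p 0.062 to 0.17), and without right library 1 the log2 difference was -0.88.

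The course of SPO11 over time was not a steady rise. It rose at E6.5 relative to E5 in left gonads (log2 1.89 ± 0.41 SE, adjusted p = 0.0038) and in right gonads (log2 2.73 ± 0.42 SE, adjusted p = 1.1e-04). At E8 relative to E6.5 it fell in left gonads (log2 -1.998 ± 0.41 SE, adjusted p = 0.0021), and in right gonads the difference did not pass (log2 -0.43 ± 0.37 SE, adjusted p = 0.45). Right gonads were above their E5 level at E9.5 (log2 1.91 ± 0.42 SE, adjusted p = 0.0011), where left gonads were not called (log2 0.33 ± 0.42 SE, adjusted p = 0.59). The F test for a side difference that varies over the 4 stages gave an adjusted p of 0.11 for SPO11. It was 0.020 in DESeq2 and 0.022 with same-numbered libraries as a block, in a range of 0.020 to 0.75 over all alternatives. That block also pairs libraries of E6.5 and E8, where same-numbered libraries did not all deviate together. SPO11 did not track the germ cell score over the 24 libraries (Pearson r = -0.057, as a description), so its level relative to that score, which is higher in left libraries at every stage, is not read as a result. Its r was -0.64 with the adrenal and chromaffin score, 0.43 with the mesonephros score and 0.42 with the liver score. From E5 to E6.5 the mean gonadal somatic score went from 4.90 to 6.36 in left gonads. In right gonads it went from 4.43 to 6.37. The part of these tissues in the rise of SPO11 was not tested. The adrenal and chromaffin score differed with side at E8 as given above, and with that score as a covariate the log2 difference at E8 was -1.06 and did not pass (adjusted p = 0.25, in a range of 9.8e-06 to 0.25 over all alternatives); side and score cannot be told apart there.

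The genes most like SPO11 over the 24 libraries were MET, the receptor of hepatocyte growth factor (r = 0.93), RGS16, a regulator of G-protein signalling (r = 0.92), and SGMS2, a sphingomyelin synthase (r = 0.92), none of which is in the germ cell or meiosis lists. MET was lower in left gonads at E8 (log2 -1.06 ± 0.19 SE, adjusted p = 0.0012) and at E9.5 (log2 -1.16 ± 0.19 SE, adjusted p = 7.8e-04). RGS16 was lower there at E8 (log2 -1.34, adjusted p = 0.0019) and at E9.5 (log2 -1.24, adjusted p = 0.0045), and SGMS2 at E8 (log2 -0.65, adjusted p = 0.0056). These genes were chosen for their likeness to SPO11, so their side differences add no separate support. In GRCg7b SPO11 lies between RAE1 and BMP7 and overlaps the long noncoding RNA gene LOC112530128, which was too low to test. RAE1 passed between sides at no stage, and BMP7, a secreted signal of the bone morphogenetic protein family, passed at E5 alone (log2 0.46, adjusted p = 0.047).

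MEIOB, which protects single-stranded DNA during recombination, stayed near the limit of detection with 0 to 16 counts per library. At E5 the 3 left libraries together held 28 counts, or 0.582 CPM (95% exact Poisson interval 0.387 to 0.841), and the 3 right ones 11 counts, or 0.231 CPM (95% exact Poisson interval 0.115 to 0.414). At E9.5 the left libraries held 8 counts, or 0.147 CPM (95% exact Poisson interval 0.0636 to 0.290), and the right ones 12 counts, or 0.239 CPM (95% exact Poisson interval 0.123 to 0.417). The intervals of the sides overlapped at both stages, as they did at E6.5 (16 counts in left and 19 in right libraries) and at E8 (13 in left and 6 in right), and they cover counting error only. At E5 the overlap was narrow, and overlap of intervals is not a test of the difference. In edgeR without the filter the E5 side difference did not pass (log2 1.31 ± 0.92 SE, adjusted p = 0.79). A right library of E5 and one of E9.5 had a count of 0, which allows up to 0.197 and 0.196 CPM at 3 counts. When all genes were tested without the filter, none of the 14 comparisons called MEIOB, and the lowest adjusted p was 0.15, for E9.5 over E5 in left gonads (log2 -1.96 ± 0.95 SE). In left gonads the interval at E9.5 lay below that at E5, as did each E9.5 library below each E5 one, yet the test across libraries did not pass.

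Between neighbouring stages, the calls on members fell on the first 2 steps. In left gonads 4 of the 5 tested members rose at E6.5 relative to E5 (STRA8, SMC1B, SYCP3 and SPO11), where 10.4% of all genes were called. At E8 relative to E6.5, SMC1B and SYCP3 rose and SPO11 fell, against 19.4% of all genes. At E9.5 relative to E8, 0 of 5 were called by edgeR, with 2 at an unadjusted p under 0.05 and 0 by DESeq2, against 1.88% of all genes. In right gonads SMC1B and SPO11 rose at E6.5 relative to E5, against 15.1% of all genes, and STRA8, SMC1B, SYCP3 and SYCP2 rose at E8 relative to E6.5, against 20.5%. At E9.5 relative to E8, 0 were called by edgeR, with 3 at an unadjusted p under 0.05 and 1, SMC1B, by DESeq2, against 3.21% of all genes. Across the whole interval, E9.5 relative to E5, 3 members rose in left gonads, against 34.2% of all genes (18.2% higher and 16% lower), and 4 rose in right gonads, against 37.5% (21.5% higher and 16.1% lower). DESeq2 and the replicate block each called 4 in left gonads, SYCP2 being the addition, and the same number as edgeR in right gonads. SPO11 was called in right gonads by each of these 3 fits, and none of them called it in left gonads. The side difference at E9.5 minus that at E5 passed for 0 of 5 members in edgeR, with 2 at an unadjusted p under 0.05 and 1, SYCP3, in DESeq2 (2.2% of all genes called). The F test over the 4 stages also passed for 0 of 5, with 2 at an unadjusted p under 0.05 and 1, SPO11, in DESeq2 (2.05% of all genes called). The side differences of STRA8 and SMC1B are therefore not shown to vary with stage.

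With the germ cell score of each library as a covariate in the same test, 14 of the 30 calls on members over all comparisons passed and 16 did not. The share of all genes that kept their calls in this fit is not given, so the loss is not read as particular to the members. The side differences of STRA8 were then 0.24, 0.30, 0.03 and 0.05 on the log2 scale over the 4 stages, and none passed. SMC1B was 0.57 at E6.5, 0.53 at E8 and 0.70 at E9.5 (adjusted p = 0.67, 0.62 and 0.25). SYCP3 was 0.73 at E8 and 0.90 at E9.5 (adjusted p = 0.26 and 0.048). At E9.5 relative to E5 in left gonads, SMC1B (log2 4.06, adjusted p = 2.4e-06), SYCP3 (log2 2.30, adjusted p = 3.0e-05) and STRA8 (log2 1.39, adjusted p = 0.036) passed. In right gonads SMC1B passed (log2 3.08, adjusted p = 0.0047), and STRA8 (log2 1.57, adjusted p = 0.15), SYCP3 (log2 1.12, adjusted p = 0.11) and SPO11 (log2 0.52, adjusted p = 0.70) did not. Because the score did not overlap between the sides at any stage, side and germ cell content cannot be told apart in these fits. Genes of the score also changed with stage in unlike ways. In left gonads RNF17 had 37.8 CPM at E5 and 141 CPM at E9.5, and DAZL had 145 and 134 CPM. The score can thus not be read as germ cell number alone over time. The adrenal and chromaffin score did not overlap between the sides at E8 either, and with it as a covariate the E8 differences of STRA8 (log2 1.38, adjusted p = 0.13), SMC1B (log2 1.55, adjusted p = 0.060) and SYCP3 (log2 1.06, adjusted p = 0.060) kept their direction and did not pass. With the mesonephros score as a covariate the E9.5 differences of SMC1B (log2 1.25, adjusted p = 0.064) and SPO11 (log2 -1.53, adjusted p = 0.075) and the E8 difference of STRA8 (log2 1.15, adjusted p = 0.054) did not pass.

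**Figure D3:**
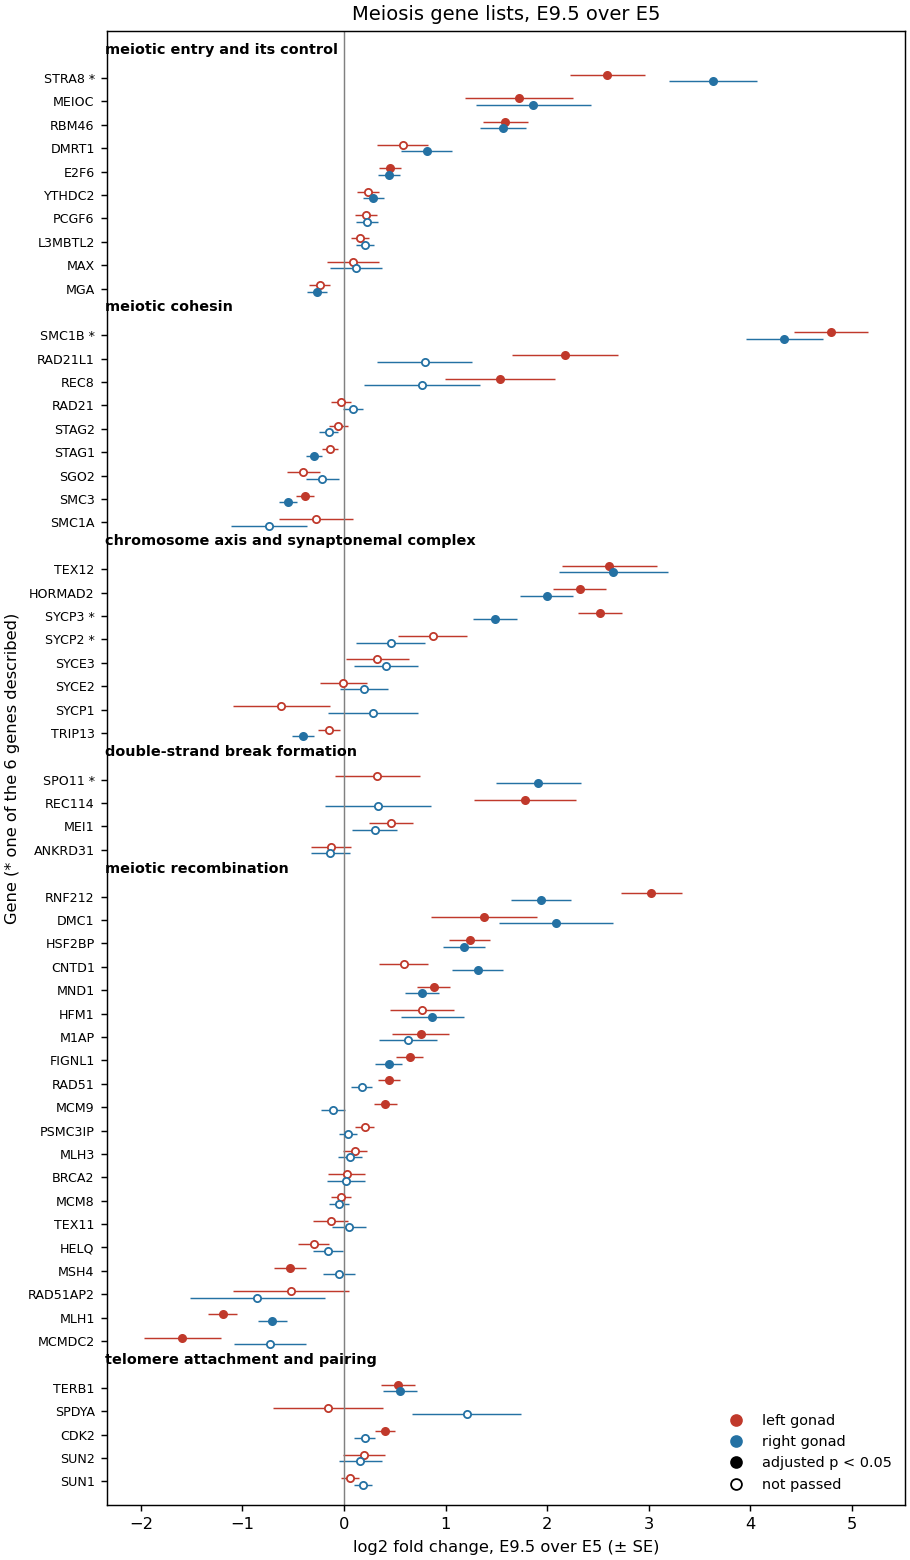
Log2 fold change at E9.5 over E5 (x axis, ± SE, edgeR) of the tested genes of the 6 meiosis lists (y axis), in left gonads (red) and right gonads (blue), filled where the adjusted p is under 0.05, with the described genes marked by an asterisk. SMC1B has the largest value on either side, 4.79 in left and 4.33 in right gonads.

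Other meiosis genes give the setting of these 6. Of 80 further listed names, from meiotic entry, cohesin, the axis and synaptonemal complex, break formation, recombination and telomere attachment, 55 matched the table and 51 were tested. Between sides, 2 of the 51 were higher in left gonads at E5, against 1.92% of all genes, 3 at E6.5, against 2.67%, 8 at E8, against 7.54%, and 6 at E9.5, against 5.13%. These counts are few at every stage, and they were not tested against that background. At E8 1 was lower, against 6.71% of all genes. Their median log2 differences of 0.06, 0.08, 0.09 and 0.10 stood beside -0.01, -0.0034, -0.04 and -0.01 over all genes tested. At E8 the higher genes included REC114, a partner that SPO11 needs for break formation (log2 1.77), the crossover factors CNTD1 (log2 0.999) and RNF212 (log2 0.85), RBM46, an RNA-binding protein needed for meiotic entry in mouse (log2 0.91), and TERB1, which ties telomeres to the nuclear envelope (log2 0.57). Adjusted p-values of these 5 were 0.0082 to 0.036. REC114 was thus higher on the left at the stage at which SPO11 was lower there. It held at most 61 counts in a library, with a median of 0.79 CPM, and whether the same cells hold both transcripts was not tested. The gene lower on the left was DMRT1, a transcription factor of the gonad that controls meiotic entry in mouse (log2 -0.93 ± 0.25 SE, adjusted p = 0.018).

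At E9.5 relative to E5, 18 of the 51 rose and 4 fell in left gonads, where 18.2% of all genes were higher and 16% lower. In right gonads 15 rose and 5 fell, where 21.5% of all genes were higher and 16.1% lower. The median log2 changes were 0.20 in left and 0.20 in right gonads, beside 0.0049 in left and 0.03 in right gonads over all genes. Of the axis and synaptonemal complex, TEX12, a central element protein, rose by 2.61 in left and 2.65 in right gonads on the log2 scale, and HORMAD2, an axis protein, by 2.32 and 1.99. Of the cohesin list, REC8, the meiotic kleisin, rose in left gonads (log2 1.54 ± 0.54 SE, adjusted p = 0.033) and did not pass in right gonads (log2 0.77 ± 0.57 SE, adjusted p = 0.31), and RAD21L1, another kleisin, rose in left gonads (log2 2.17 ± 0.52 SE, adjusted p = 0.0028). RAD21L1 rests on few counts, at most 26 in a library, with a mean of 0.210 CPM in E5 left gonads. The side difference at E9.5 minus that at E5 did not pass in edgeR for RAD21L1 (log2 1.38 ± 0.71 SE, adjusted p = 0.37) or for REC8 (log2 0.77 ± 0.79 SE, adjusted p = 0.73). Of the recombination list, RNF212 rose by 3.02 in left and 1.94 in right gonads, and DMC1, the meiotic strand-exchange protein, by 1.38 and 2.08. Of the entry list, MEIOC, which steers germ cells into meiotic prophase in mouse, rose by 1.72 in left and 1.86 in right gonads, and RBM46 by 1.59 and 1.57. Those that fell included MCMDC2, a recombination gene, in left gonads (log2 -1.59 ± 0.38 SE, adjusted p = 0.0027; in right gonads log2 -0.73 ± 0.36 SE, adjusted p = 0.12), and SMC3, a cohesin subunit of all dividing cells, by 0.38 in left and 0.55 in right gonads. For MCMDC2 the side difference at E9.5 minus that at E5 did not pass in edgeR (log2 -0.86 ± 0.52 SE, adjusted p = 0.47). DMC1, MEIOC and MCMDC2 also rest on few counts, at most 35, 47 and 50 in a library.

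Of 12 tested genes for retinoic acid synthesis, breakdown and binding, 1 was higher and 2 lower in left gonads at E5. Of all genes 1.92% were higher and 1.02% lower there. At E8 2 were higher and 5 lower, against 7.54% and 6.71% of all genes. At E9.5 1 was higher and 4 lower, against 5.13% and 7.87%. At E6.5 the lowest adjusted p of the 12 was 0.062. Of the genes called at E8 and E9.5, only lower ones are named below. The synthesis enzyme ALDH1A2 was lower in left gonads at E5 (log2 -0.59 ± 0.16 SE, adjusted p = 0.046) and E8 (log2 -0.71 ± 0.16 SE, adjusted p = 0.0058), stages at which STRA8 was higher there, and did not pass at E6.5 or E9.5 (log2 -0.44 and -0.12). Whether the retinoic acid genes bear on the level of STRA8 was not tested, and no fit with a tissue score is given for them. CYP26B1, which breaks retinoic acid down, passed at no stage, with log2 differences of -0.35, 0.05, -0.32 and -0.40. Of the genes named next after their values were seen, CYP26A1, another breakdown enzyme, was higher in left gonads at E5 (log2 1.03 ± 0.25 SE, adjusted p = 0.029) and lower at E8 (log2 -1.12 ± 0.26 SE, adjusted p = 0.0072). Its log2 differences of -0.04 at E6.5 and -0.22 at E9.5 did not pass, and the F test over the 4 stages did (adjusted p = 0.014). The synthesis enzyme ALDH1A3 was lower in left gonads at E5, E8 and E9.5 (log2 -0.71, -0.92 and -1.17), and DHRS3, which turns retinal back to retinol, at E8 and E9.5 (log2 -1.01 and -0.99), with an adjusted p of 5.1e-04 in the F test over stages.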

How the data were processed

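Per the labels, poly(A) RNA of left and right gonads of female Leghorn embryos was extracted with a Zymo column kit and made into libraries with NEB reagents. The deposited table holds raw read counts per gene, made by the authors with Trim Galore 0.6.7, STAR 2.7.10a, the GRCg6a build and HTSeq 2.0.0, per the submitters' processing notes; no annotation or strand setting is given in the sources used here. Columns were matched to samples by name, and 0 columns belonged to other samples. Libraries held 15078282 to 19970859 counts, and libraries of a group differed beyond sampling noise.

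Counts were filtered with filterByExpr (minimum count 10, minimum total 15), scaled by TMM and fitted in edgeR 4.0.16 (R 4.3.3, limma 3.58.1) with quasi-likelihood and 1 mean for each of the 8 groups over 24 libraries. P-values were Benjamini-Hochberg adjusted over 16694 genes and called under 0.05, and SE is the absolute log2 fold change over the square root of F. Log2 CPM and the scores used a prior count of 2. The fit was also run on simulated data, with changes set in tested genes above a minimum mean level and with libraries drawn independently. That run does not cover genes as low as MEIOB or libraries that deviate together. Alternatives were median-of-ratios size factors, DESeq2 1.42.0, no filter, single libraries left out, the compared groups alone, a replicate block, tissue scores as covariates and the loss of the libraries with liver transcripts.

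Replicate numbers come from the labels, which do not say what they share. Deviations of same-numbered left and right libraries from their group means correlated at 0.35 to 0.52 at E5 and 0.28 to 0.42 at E9.5. The correlations were -0.16 to 0.53 at E6.5 and -0.023 to 0.13 at E8. The main fit paired no libraries. Between sides the replicate block paired same-numbered libraries at all 4 stages. Between stages it gave each replicate number an effect shared by all stages and both sides. The 6 genes were given in every comparison. Of each meiosis list, up to 4 called genes with the largest change were named, between sides at E8 and for E9.5 over E5 alone. Also named were DDX4, DAZL, ALDH1A2, CYP26B1 and neighbours of STRA8, SYCP3 and SPO11 in GRCg7b. So were the 3 genes of at least 2 mean CPM that correlate best with each tested member. Further retinoic acid genes were named after their values were seen. Members and lists were chosen with earlier results of these data known. No sequences or coordinates are given, since the reference table is of another build than the files.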

Additional observations from a re-analysis of the deposited data

How the results depend on the processing

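Over all comparisons, 30 calls were made on members. Of these, 30 passed with the median-of-ratios size factors, 30 with DESeq2 (and 4 more) and 29 without the filter on low counts. A fit of just those libraries compared kept 21 (and 1 more), and the replicate block 30 (and 4 more). With the germ cell score as a covariate 14 passed, with the mesonephros score 27 (and 1 more) and with the adrenal score 23 (and 1 more). The causes of these shifts were not tested. DESeq2 called 1 member for E9.5 over E8 in right gonads, 1 for the side difference at E9.5 minus that at E5, and 1 in the F test over stages, and the fourth call that it added was SYCP2 for E9.5 over E5 in left gonads. The fit of the compared libraries alone called 0 members between sides at E5 and 0 at E6.5, 2 for E6.5 over E5 in left gonads, 1 for E6.5 over E5 and 2 for E8 over E6.5 in right gonads. The shares of all genes called by the alternative fits are not set beside these counts. A changed count is therefore not read as a trait of the members. The replicate block differed by comparison. Between sides it paired same-numbered libraries of a stage, and it added SPO11 in the F test and STRA8 at E9.5. Between stages it gave each replicate number an effect shared by all stages and both sides, which the labels do not state. There it added SMC1B for E9.5 over E8 in right gonads (adjusted p = 0.040, in a range of 0.019 to 0.32 over all alternatives). It also added SYCP2 for E9.5 over E5 in left gonads (adjusted p = 0.0079, in a range of 0.0079 to 0.82). The block changed no other call. Same-numbered libraries deviated together at E5 and E9.5, while at E6.5 3 of 6 and at E8 4 of 6 libraries correlated best with their own number. The block paired E6.5 and E8 libraries all the same, so its F test rests in part on pairs that these values do not bear out. The germ cell score as a covariate left 0 members called between sides at E5 and 0 at E6.5, 1 at E8, 2 for E6.5 over E5 in left gonads, and 1 each for E6.5 over E5, E8 over E6.5 and E9.5 over E5 in right gonads. The mesonephros score left 1 at E9.5 (SYCP3), and the adrenal score 0 at E8 and 1 for E6.5 over E5 in right gonads.

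Leaving out 1 library at a time gave 0 to 1 members called between sides at E5, 0 to 2 at E6.5, 4 to 4 at E8 and 1 to 3 at E9.5, 2 to 4 for E6.5 over E5 in left gonads, 1 to 2 for E6.5 over E5 and 1 to 4 for E8 over E6.5 in right gonads, and 0 to 1 for the side difference at E9.5 minus that at E5. The shares of all genes called in these fits are not given either, so these counts are not read as a trait of the members. STRA8 passed for E6.5 over E5 in right gonads without the E6.5 right library 3 (log2 1.60, adjusted p = 0.046, in a range of 0.046 to 0.34). No called difference changed direction under any alternative run, and some uncalled ones did. Left over right, with the germ cell score, SYCP2 had -0.93, -0.27, -0.69 and -0.014 over the 4 stages, and at E5 SPO11 had -0.85, SMC1B -0.28 and SYCP3 -0.28. On the same fit SYCP2 had -0.22 for E6.5 over E5 in left and -0.73 for E9.5 over E5 in right gonads, and SPO11 -0.47 for E9.5 over E5 in left gonads. With the adrenal score at E5, SYCP3 had -0.0061, SYCP2 -0.14 and SPO11 -0.0083, and without the libraries that hold liver transcripts SYCP2 at E8 had -0.056. Without single libraries, E5 side differences ranged over -0.066 to 0.17 (SYCP3), -0.11 to 0.22 (SYCP2) and -0.023 to 0.60 (SPO11), and that of SYCP2 at E8 over -0.21 to 0.48. SYCP2 ranged over -0.12 to 0.31 for E6.5 over E5 and -0.12 to 0.56 for E9.5 over E8 in left gonads and over -0.31 to 0.17 for E9.5 over E8 in right gonads, and SPO11 over -0.012 to 0.54 for E9.5 over E5 in left gonads. For levels relative to germ cell genes, a prior count of 0.5 gave STRA8 0.50 between sides at E5 and 1.89 for E9.5 over E5 in right gonads. DDX4 and DAZL in place of the score gave 1.97 (STRA8), 1.96 (SYCP3), 0.38 (SYCP2) and 4.30 (SMC1B) for E9.5 over E5 in left gonads. Among the members, depth limits STRA8 at E5 and MEIOB at every stage most, since each rests on few counts per library.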
